A study of Mus musculus with 4 samples.

Results

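Thymospheres are clusters of thymus cells grown in suspension. In such spheres 10 genes of growth arrest and senescence were followed, out of 21150 genes to which array probes could be matched. They were listed by name, with no threshold on their values. They are the CDK inhibitor genes Cdkn1a, Cdkn1b, Cdkn2a, Cdkn2b, Cdkn2c and Cdkn2d, the p53 gene Trp53, the p53 target genes Mdm2 and Ccng1, and the retinoblastoma gene Rb1. Spheres came from the thymus of adult C57Bl6/N mice, 5 to 6 weeks old, or of C57Bl6/N embryos at embryonic day 14.5. Each group had 2 samples, each on its own Agilent 1-colour array, and all 4 arrays lay on 1 slide. Both groups grew for 7 days in the same medium, which held EGF, bFGF, insulin, hydrocortisone and B27, and the labels name no transgene and no treatment that set the groups apart. The labels mention biological and technical replication without saying which arrays are which, so p-values reflect only how far these samples spread, and that spread may be technical. Adult and embryonic arrays took different places on the slide, so place and group cannot be told apart. Whole spheres were lysed, so fewer cells of a type and less RNA per cell cannot be told apart.

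CDK inhibitors stop the cell cycle by binding cyclin-dependent kinases. The CIP/KIP proteins p21 (Cdkn1a), p27 (Cdkn1b) and p57 (Cdkn1c) act on several cyclin-CDK complexes, while the INK4 proteins p16 (Cdkn2a), p15 (Cdkn2b), p18 (Cdkn2c) and p19 (Cdkn2d) bind CDK4 and CDK6. Either way RB stays unphosphorylated and holds E2F factors back from the genes of S phase. Cdkn2a also encodes ARF from another first exon, which blocks MDM2, the ligase that degrades p53. p53 in turn induces Cdkn1a, Mdm2 and Ccng1. In many tissues p16 and ARF are low in the embryo and rise with age.

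Start site regions of Cdkn1a and Cdkn2a are shown because each has 2 starts and 2 probes, and those of Cdkn1b and Ccng1 because these genes rose. RefSeq windows of GRCm38.p6, from 250 bases before to 50 after a start, were found for 9 of the 10 genes. Capitals mark p53 decamers (the 10-base unit of the p53 response element) or the GC box GGGCGG, searched on both strands. In the Cdkn2a windows they also mark the E2F-type motif TTTNNCGC. Cdkn1a has a start upstream of another, and the table does not say which transcript begins at which.
Cdkn1a, upstream start (chr17:29090729-29091028, plus strand): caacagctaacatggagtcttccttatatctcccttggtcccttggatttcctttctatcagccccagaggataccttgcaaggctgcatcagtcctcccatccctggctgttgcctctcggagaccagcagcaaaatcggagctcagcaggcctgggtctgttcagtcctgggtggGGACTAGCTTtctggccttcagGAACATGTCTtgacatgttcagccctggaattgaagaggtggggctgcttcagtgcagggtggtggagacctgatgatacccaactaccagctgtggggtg
Cdkn1a, downstream start (chr17:29093519-29093818, plus strand): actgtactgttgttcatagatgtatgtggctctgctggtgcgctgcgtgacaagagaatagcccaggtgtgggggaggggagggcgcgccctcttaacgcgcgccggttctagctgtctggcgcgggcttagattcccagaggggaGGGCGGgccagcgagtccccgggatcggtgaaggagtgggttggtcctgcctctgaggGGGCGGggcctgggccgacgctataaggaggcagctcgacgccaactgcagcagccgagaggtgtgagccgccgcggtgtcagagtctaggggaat
Cdkn1b (chr6:134920151-134920450, plus strand): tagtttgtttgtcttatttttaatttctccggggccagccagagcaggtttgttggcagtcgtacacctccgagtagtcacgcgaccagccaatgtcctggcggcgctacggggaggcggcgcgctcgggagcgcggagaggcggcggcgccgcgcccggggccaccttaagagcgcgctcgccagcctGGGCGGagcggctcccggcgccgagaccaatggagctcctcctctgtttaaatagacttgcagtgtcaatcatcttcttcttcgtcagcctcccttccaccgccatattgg
Cdkn2a, upstream start (chr4:89294570-89294869, minus strand): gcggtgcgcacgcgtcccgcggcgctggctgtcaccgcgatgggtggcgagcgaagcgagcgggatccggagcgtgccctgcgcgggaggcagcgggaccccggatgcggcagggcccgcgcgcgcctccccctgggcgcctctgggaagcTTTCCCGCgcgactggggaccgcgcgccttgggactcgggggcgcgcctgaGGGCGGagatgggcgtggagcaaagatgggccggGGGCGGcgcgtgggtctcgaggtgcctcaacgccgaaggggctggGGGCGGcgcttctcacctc
Cdkn2a, downstream start (chr4:89282143-89282442, minus strand): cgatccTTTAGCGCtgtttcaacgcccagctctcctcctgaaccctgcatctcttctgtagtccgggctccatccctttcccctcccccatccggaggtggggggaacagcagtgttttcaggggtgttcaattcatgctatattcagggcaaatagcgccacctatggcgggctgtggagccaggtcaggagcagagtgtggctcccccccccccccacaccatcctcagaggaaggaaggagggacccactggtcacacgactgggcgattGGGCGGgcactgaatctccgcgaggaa
Ccng1 (chr11:40755237-40755536, minus strand): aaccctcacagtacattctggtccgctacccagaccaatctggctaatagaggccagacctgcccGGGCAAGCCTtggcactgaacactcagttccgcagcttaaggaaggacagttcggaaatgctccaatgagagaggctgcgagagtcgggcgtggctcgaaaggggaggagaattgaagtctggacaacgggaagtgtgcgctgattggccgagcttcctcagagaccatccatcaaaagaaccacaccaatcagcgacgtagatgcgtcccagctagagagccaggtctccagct

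The Cdkn1a windows differed in kind. The upstream one held 2 p53 decamers within 13 bases of each other, which makes a p53 response element, and no GC box. Such an element was found in 0.0731% of 32851 windows. The downstream window held 2 GC boxes and no p53 decamer. A single p53 decamer, found in 8.36% of windows, lay in those of Ccng1, Mdm2, Trp53 and Cdkn2d. GC boxes, found in 35.7% of windows, stood in the windows of Cdkn1b, Cdkn2b, Cdkn2d and Mdm2, in both of Cdkn2a and in the upstream one of Cdkn2c. An E2F-type match, found in 5.17% of windows, lay in both Cdkn2a windows and in that of Mdm2. These matches describe the letters only.

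Signals were read as normalised log2 signal, in which 0 is the 75th percentile of the array, so levels are compared between arrays for 1 probe and never between probes. Spots well above background made up 71.6% and 49.6% of the adult arrays and 48.3% and 35.7% of the embryonic arrays. Feature Extraction marked 2756 spots of adult array 2 as outliers, against 95 to 185 on the others. Fold changes are embryonic minus adult from a limma fit over 13657 genes, with p adjusted over all of them and called below 0.05. Of all tested genes 53.5% were called, 36.1% higher and 17.5% lower in embryonic spheres, and the median log2 fold change was 0.79. Values for the growth arrest genes are to be read against that median. With 2 arrays per group an exact permutation test of 1 gene cannot give a two-sided p below 0.333, so the calls rest on the spread that limma pools across genes.

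Each growth arrest gene that was called was higher in embryonic than in adult spheres, and none was called lower. Most of these calls rested on the scaling of the arrays, as given below. All 10 genes were tested and 9 were well above background on all 4 arrays. Called higher were Cdkn1b, Rb1, Ccng1, Cdkn1a and Cdkn2b, 5 of 10 against 36.1% of all genes called higher, 17.5% lower and 53.5% in either direction. Mdm2, Cdkn2d, Cdkn2a, Trp53 and Cdkn2c were not called. The median log2 fold change of the 10 genes was 1.22 against 0.79 over all genes, and 7 of the 10 lay above the median of all genes. In 9 of them both embryonic arrays stood above both adult arrays, as they did in 61.6% of all genes with 4 values. The groups did not overlap, in either direction, in 84.1% of those genes and in 82.0% of genes well above background on all 4 arrays. After the tested genes of every array were centred to their median, 2 of the 10 were called higher, Cdkn1b and Rb1, against 7.62% of all genes called higher and 20.3% called lower.

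**Figure D1:**
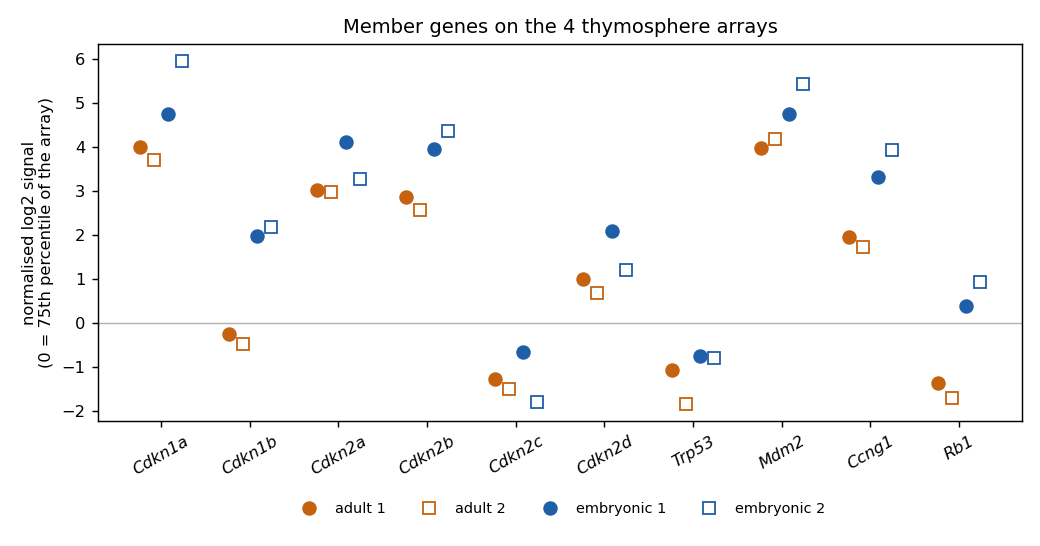
Normalised log2 signal (vertical axis, 0 is the array's 75th percentile) of the probe that stands for each of the 10 genes (horizontal axis) on adult arrays 1 and 2 (orange) and embryonic arrays 1 and 2 (blue), filled for array 1 and open for array 2. Both embryonic arrays lie above both adult arrays for 9 genes and straddle them for Cdkn2c, and heights of different genes are not comparable.

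The CIP/KIP gene Cdkn1b, which encodes p27, the inhibitor that holds quiescent cells in G1, changed most of the 10 in the values as reported, though under quantile normalization Rb1 changed more (2.44 against 2.06). Normalised log2 signal was -0.25 and -0.47 in adult spheres, against 1.99 and 2.17 in embryonic spheres. Both embryonic arrays stood far above the adult ones, and the gap between groups was about as large on either pair. The log2 fold change was 2.44 (SE 0.31, 95% interval 1.66 to 3.21, adjusted p = 0.0077), a 5.42-fold difference, and 96.8% of all tested genes had a lower value. After centring on the tested genes it was still called, at 1.78 (adjusted p = 0.0107).

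Cdkn1a, which encodes the p53-induced inhibitor p21, was called only narrowly. On the probe that stands for the gene, annotated to transcript NM_007669, adult spheres read 4.001 and 3.71 in normalised log2 signal and embryonic spheres 4.75 and 5.95. The embryonic arrays were both higher, and they differed from each other by 1.202, the widest gap among the 10 genes. This probe sits in 10 spots, whose SD within an array was 0.06 to 0.09, well below the gap between the embryonic arrays. Before scaling the mean signal was 3400 and 3801 units on them and 2117 and 865 on the adult arrays, while the 75th percentile was 126, 61.5, 132 and 66.0. The log2 fold change was 1.49 (SE 0.48, 95% interval 0.30 to 2.69, adjusted p = 0.0445). The call ended after centring on the tested genes (0.84, adjusted p = 0.23), when the percentile was taken without the spots marked as outliers (1.35, adjusted p = 0.0645) and when embryonic array 2 was left out (0.89, adjusted p = 0.105).

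The other Cdkn1a probe, annotated to transcript NM_001111099, pointed the other way. Adult array 1 read 1.13 in normalised log2 signal, above the 0.29 and 0.37 of embryonic spheres. Its only spot on adult array 2 was marked as an outlier and left out, so 3 arrays entered the fit. Embryonic signal was lower than that of the remaining adult array, by -0.80 on the log2 scale (SE 0.41, adjusted p = 0.155 over 17066 probes in limma), which was not called. The marked spot read 2.83, and with it kept the fold change was -1.65 (SE 0.59, adjusted p = 0.0585). The 2 probes of this gene thus differed in the sign of their values, with the second not called. The 2 start windows printed above differ in their p53 decamers and GC boxes, and the tables used here do not tie either probe to a start.

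**Figure D2:**
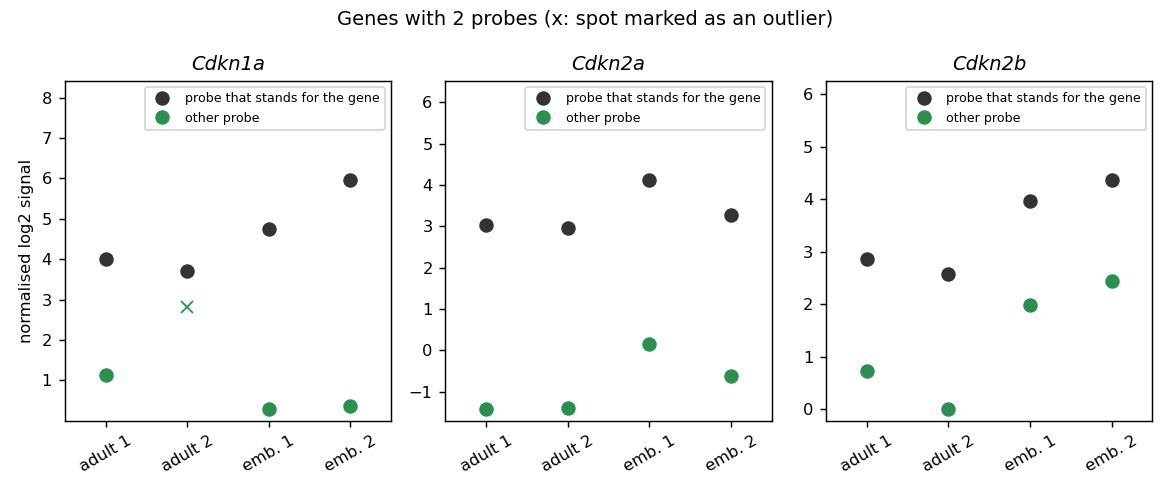
Normalised log2 signal (vertical axis) on the 4 arrays (horizontal axis) of both probes of Cdkn1a, Cdkn2a and Cdkn2b, 1 point per array (black for the probe that stands for the gene, green for the other), with a cross for a spot marked as an outlier. The probe standing for Cdkn1a is highest on the embryonic arrays and its other probe on the adult arrays, while both probes of Cdkn2b are highest on the embryonic arrays.

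Cdkn1c, the remaining CIP/KIP gene, encodes the imprinted inhibitor p57 and is not one of the 10. Embryonic spheres read 5.29 and 5.20, adult spheres -0.56 and -0.54. Its log2 fold change of 5.80 (SE 0.30, adjusted p = 0.00732) exceeded that of every growth arrest gene followed here. All 3 CIP/KIP genes were thus called higher, beside 36.1% of all genes, and Cdkn1b and Cdkn1c also after centring, beside 7.62%.

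Of the 4 INK4 genes 1 was called higher, beside 36.1% of all genes. Their median log2 fold change of 0.75 was close to the 0.79 of all genes. The called one was Cdkn2b, which encodes the TGF-beta-responsive inhibitor p15. It read 2.86 and 2.57 in adult spheres and 3.95 and 4.35 in embryonic ones. Embryonic arrays were both higher and the groups did not overlap. Its log2 fold change was 1.44 (SE 0.33, 95% interval 0.61 to 2.27, adjusted p = 0.0194), and after centring 0.78 (adjusted p = 0.112), which ended the call. Its other probe rose too, by 1.85 (SE 0.40, adjusted p = 0.0164 over the probes), from 0.73 and 0.00056 in adult spheres to 1.98 and 2.45.

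Cdkn2a, the neighbour of Cdkn2b that encodes p16 and ARF, was not called. The probe that stands for it read 3.03 and 2.97 in adult spheres, against 4.11 and 3.26 in embryonic ones. Embryonic array 1 stood well above the rest and embryonic array 2 just above the adult arrays. The log2 fold change was 0.69 (SE 0.39, 95% interval -0.29 to 1.67, adjusted p = 0.176), which became negative under quantile normalization (-0.22) and in the deposited value table (-0.28). The second probe, at -1.43 and -1.41 in adult and 0.16 and -0.62 in embryonic spheres, was called higher in the fit over probes (1.19, SE 0.38, adjusted p = 0.0456). Both probes carry the same RefSeq accession, that of the transcript NM_009877, so p16 and ARF transcripts were not separated. On both probes the embryonic arrays lay above the adult arrays.

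The other INK4 genes were not called. Cdkn2d, which encodes p19 of the INK4 family, read 1.01 and 0.68 in adult and 2.09 and 1.22 in embryonic spheres (log2 fold change 0.81, SE 0.41, adjusted p = 0.139). The values of Cdkn2c, which encodes p18, were -1.28 and -1.501 in adult spheres and -0.65 and -1.80 in embryonic spheres. On embryonic array 2 Cdkn2c was not well above background, and its groups overlapped. It had the lowest log2 fold change of the 10 genes (0.16, SE 0.46, 95% interval -0.99 to 1.32, adjusted p = 0.769), and the sign turned after centring (-0.49) and without embryonic array 1 (-0.41). For Cdkn2a, Cdkn2c and Cdkn2d embryonic array 1 read higher than embryonic array 2, by 0.84, 1.15 and 0.87, while for Cdkn1a, Cdkn1b, Cdkn2b, Mdm2, Ccng1 and Rb1 it read lower, by 0.19 to 1.202. Without embryonic array 2, Cdkn2a (1.11, adjusted p = 0.0476) and Cdkn2d (1.24, adjusted p = 0.0308) were called higher.

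Trp53 itself was not called. It read -1.08 and -1.83 in adult spheres and -0.75 and -0.80 in embryonic spheres. The embryonic arrays were close to each other and just above adult array 1, and without adult array 2 the log2 fold change was 0.30. With all arrays it was 0.68 (SE 0.37, 95% interval -0.26 to 1.62, adjusted p = 0.166), close to the median of all genes. It was called under quantile normalization (1.17, adjusted p = 0.0356).

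Among the p53 targets, Ccng1 rose and Mdm2 missed the threshold. Ccng1, the gene of the p53-induced cyclin G1, read 1.95 and 1.74 in adult and 3.31 and 3.94 in embryonic spheres, a log2 difference of 1.78 (SE 0.36, 95% interval 0.89 to 2.68, adjusted p = 0.0144). Both embryonic arrays were clearly above both adult arrays. Centring ended the call (1.12, adjusted p = 0.062). Mdm2, which encodes the ligase that marks p53 for degradation, read 3.98 and 4.18 in adult and 4.74 and 5.43 in embryonic spheres, a log2 difference of 1.00 (SE 0.37, 95% interval 0.09 to 1.92, adjusted p = 0.0631). Its groups did not overlap. The value was 0.35 (adjusted p = 0.502) after centring, 0.27 (adjusted p = 0.668) under quantile normalization and 0.16 (adjusted p = 0.759) in the deposited value table, and 1.35 (adjusted p = 0.0196) without embryonic array 1.

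Rb1, whose product RB binds E2F factors and is the common target of the inhibitors, rose almost as much as Cdkn1b. It read -1.37 and -1.70 in adult spheres and 0.38 and 0.93 in embryonic spheres. The groups were far apart compared with the gap inside either. The log2 fold change was 2.19 (SE 0.36, 95% interval 1.30 to 3.08, adjusted p = 0.0103), a 4.56-fold difference, and after centring 1.53 (adjusted p = 0.0252). Its probe sits in 10 spots, whose log2 values ran from -3.22 to -0.92 in adult spheres and from 0.25 to 1.10 in embryonic spheres. No spot of an adult array reached the lowest spot of an embryonic array. On adult array 2, where Rb1 was dim, 9 of the 10 spots were well above background.

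**Figure D3:**
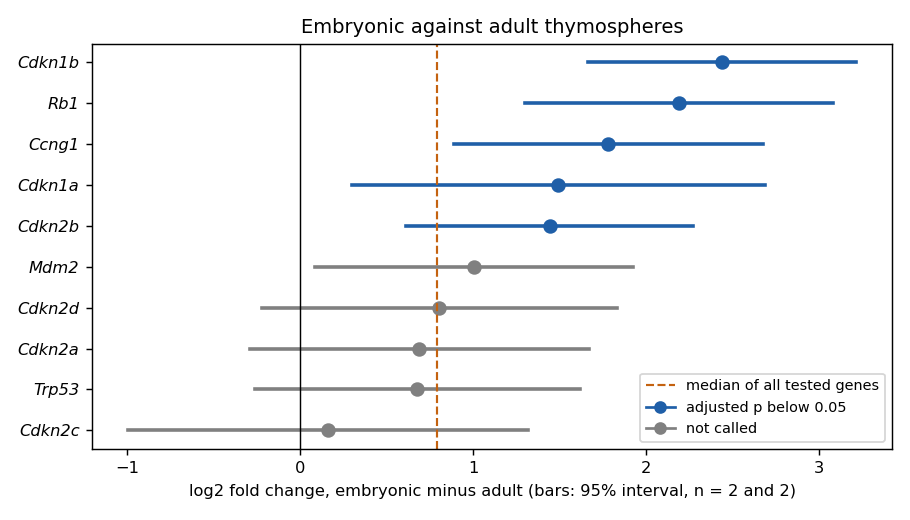
Log2 fold change, embryonic minus adult, of each of the 10 genes (points) with its 95% interval from limma (bars, 2 arrays per group). The dashed line is the median of all tested genes, 0.79. Intervals of Cdkn1b, Rb1 and Ccng1 lie above that line, and those of Cdkn2c, Trp53, Cdkn2a and Cdkn2d include 0.

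The calls depended on the adult arrays and on the scaling. When either adult array was left out, none of the 10 genes was called, and no other gene on the array was. The log2 fold change of Cdkn1a was 2.09 without embryonic array 1 and 0.89 without embryonic array 2. Cdkn1b and Rb1 were called in 15 of 17 alternatives, all but those without an adult array, Ccng1 in 12, Cdkn2b in 11 and Cdkn1a in 7. Centred on the median of all probes, where the median of the tested genes was 1.98, all 10 were called higher. So were 9831 of all 13657 tested genes. No alternative called any of the 10 lower.

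**Figure D4:**
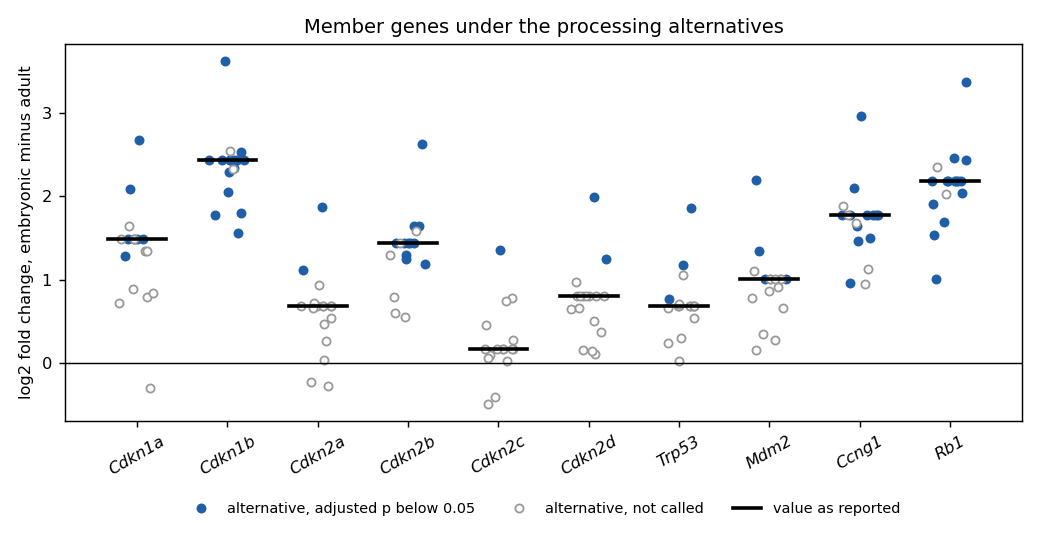
Log2 fold change, embryonic minus adult (vertical axis), of the 10 genes as reported (black bar) and under each processing alternative (1 point each, filled where the adjusted p was below 0.05). Cdkn1b runs from 1.56 to 3.62 and Rb1 from 1.01 to 3.38, both above 0 throughout, whereas Cdkn2a and Cdkn2c cross 0. Cdkn1a has 1 point below 0, the mean of its probes, for which adult array 2 held 1 of the 2 probes.

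Other p53 targets were higher in embryonic spheres or not called. Of 38 tested p53 target genes 24 were called higher and none lower, beside 36.1% and 17.5% of all genes, and without the followed genes the count was 22 of 35. Their median log2 fold change was 1.33. Among them were Perp, a desmosomal gene that p53 induces in apoptosis (3.29, SE 0.65, adjusted p = 0.0141), the antiproliferative gene Btg2 (3.11, SE 0.41, adjusted p = 0.00826) and Trp53inp1, whose product modifies p53 activity (2.77, SE 0.34, adjusted p = 0.00755). After centring 7 of the 38 were higher, Perp, Btg2 and Trp53inp1 among them, and 1 was lower, beside 7.62% and 20.3% of all genes. The median of all genes itself moved with the scaling, from 0.14 after centring on tested genes to 1.98 after centring on all probes.

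Of 13 tested genes of the p53 family and its regulators 7 were called higher and 1 lower, beside 36.1% and 17.5% of all genes, with a median of 1.36. After centring 4 were higher and 1 lower. The phosphatase gene Ppm1d, which shuts the p53 response off, rose by 2.12 (SE 0.34, adjusted p = 0.0101), the p53-inhibiting Ppp1r13l 2.04 (SE 0.44, adjusted p = 0.0164) and Usp7, a deubiquitinase of MDM2 and p53, 1.91 (SE 0.31, adjusted p = 0.0102). The damage kinase gene Chek2, named after its value was seen, was lower (-1.81, SE 0.33, adjusted p = 0.0123), and embryonic signal exceeded background on 1 array only. Mdm4, the partner of MDM2 and likewise named afterwards, rose by 1.38 (adjusted p = 0.0228). Mdm4 and Ppp1r13l were not called after centring (adjusted p = 0.18 and 0.0677).

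Around Rb1 the family did not move as one. Of 12 tested RB and E2F genes 6 were called higher and 1 lower, beside 36.1% and 17.5% of all genes, with a median of 1.10. After centring 2 were higher, Rb1 and E2f3, and 1 was lower. The E2F genes E2f3 (1.73, SE 0.30, adjusted p = 0.0115) and E2f6 (1.23, SE 0.34, adjusted p = 0.03) and the E2F partner gene Tfdp1 (1.38, SE 0.35, adjusted p = 0.0252) rose with Rb1, but E2f6 and Tfdp1 were not called after centring (adjusted p = 0.205 and 0.202). Rbl1, which encodes the RB relative p107 and is named here after its value was seen, stood opposite, at 0.76 and 1.10 in adult spheres and too close to background in embryonic ones. Adult signal was at least 10.3-fold higher (adjusted p = 0.00732), a bound taken against the lowest signal well above background on each embryonic array or the probe's own signal where that was higher.

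The kinases' cyclin partners and the replication genes were also higher or uncalled. The shares of all genes, to be set beside each list here, were 36.1% higher and 17.5% lower, and after centring 7.62% and 20.3%. Of 7 tested G1 cyclin and CDK genes 5 were called higher, and 3 after centring. They were led by the D-type cyclin genes Ccnd1 (2.04, SE 0.32, adjusted p = 0.00963), Ccnd2 (1.99, SE 0.32, adjusted p = 0.0101) and Ccnd3 (1.83, SE 0.32, adjusted p = 0.0116), whose complexes the INK4 proteins block. Probes for Cdk6 were not well above background on any array. Of 17 proliferation genes 8 were higher and none lower, with a median of 1.35, among them the helicase genes Mcm3 (1.84, SE 0.39, adjusted p = 0.0159), Mcm4 (1.77, SE 0.32, adjusted p = 0.0125) and Mcm5 (1.60, SE 0.38, adjusted p = 0.0207), and after centring 0 of 17 were called. Genes of p27 turnover gave 4 of 7 higher, with Cul1 (1.47, SE 0.33, adjusted p = 0.0186), Cul4a (1.19, SE 0.30, adjusted p = 0.0239) and Fbxo4 (1.15, SE 0.33, adjusted p = 0.0324), and none was called after centring. Cdkn1b, by comparison, was called under both scalings.

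Regulators of the Ink4-Arf locus were called higher more often than lower, a balance that rested on the scaling. Of 13 tested 9 rose and 1 fell, beside 36.1% and 17.5% of all genes, with a median of 1.29. After centring 2 were higher, Tbx2 and Ets2, and 1 was lower. Those called higher before centring included Tbx2, a repressor of the locus (3.21, SE 0.59, adjusted p = 0.0124), and the activator gene Ets2 (2.22, SE 0.32, adjusted p = 0.00911). The demethylase gene Kdm6b was also among them (1.71, SE 0.33, adjusted p = 0.0134), but was not called after centring (adjusted p = 0.0604). The lower gene, named after its value was seen, was the Polycomb gene Ring1 (-1.73, adjusted p = 0.0258), fitted on 3 arrays.

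Genes linked to senescence other than the inhibitors went both ways. Of 17 tested 5 were higher and 7 lower, beside 36.1% and 17.5% of all genes. Their median was 0.12, below that of all genes. Lower in embryonic spheres were the secreted inhibitor gene Timp1 (-3.13, SE 0.33, adjusted p = 0.00732), the protease gene Mmp3 (-2.05, SE 0.58, adjusted p = 0.0315) and Igfbp7 (-1.98, SE 0.40, adjusted p = 0.0146). Higher were Igfbp5 (3.57, SE 0.54, adjusted p = 0.00934), Igfbp3 (2.66, SE 0.30, adjusted p = 0.00736) and the growth differentiation factor gene Gdf15 (1.88, SE 0.43, adjusted p = 0.0187). Of the 7 lower genes 2 had embryonic signal too close to background on both arrays. After centring 2 genes were higher and 7 lower, beside 7.62% and 20.3% of all genes. Before centring no inhibitor gene was called lower, beside 17.5% of all genes, and the inhibitor genes are few.

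**Figure D5:**
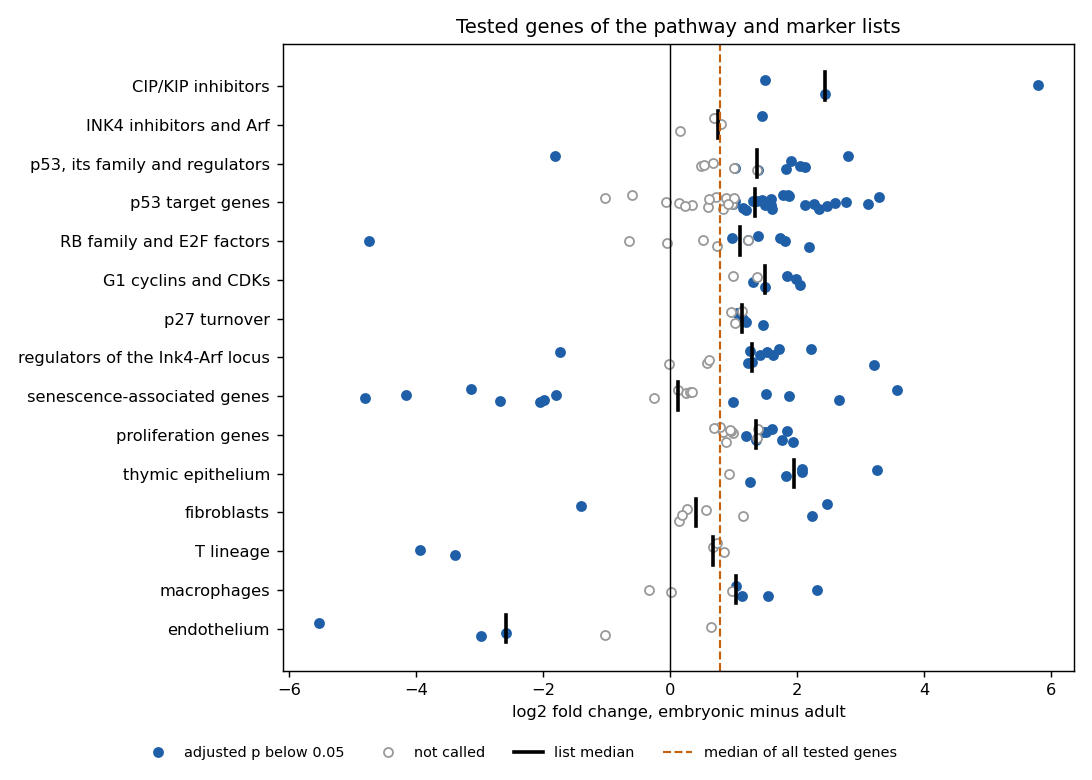
Log2 fold change, embryonic minus adult (horizontal axis), of every tested gene of the pathway and marker lists (rows), filled where the adjusted p was below 0.05, with the list median (black bar) and the median of all tested genes, 0.79 (dashed line). The p53 target row has 24 filled points above 0 and none below, and the senescence row has 5 above and 7 below.

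Cell type markers moved with the groups too. Of 7 thymic epithelial markers 6 were tested and 5 were higher in embryonic spheres, with mean normalised log2 signals of 2.74 and 1.89 in adult and 3.97 and 4.46 in embryonic spheres. Each of the 4 arrays detected Epcam, Krt5, Krt8, Krt18 and Cdh1, while Psmb11, which marks cortical epithelium, was well above background on 1. All 8 fibroblast markers were so on all 4 arrays, at means of 4.54 and 4.52 against 5.59 and 4.87, with 2 higher and 1 lower. All 7 macrophage markers were likewise measured, at means of 1.10 and 1.49 against 2.38 and 2.11, with 4 higher. T lineage markers went from means of -0.06 and -0.20 to -1.48 and -0.81 with 2 of 5 called lower. Those 2 were Cd3g and Ptcra, both too close to background on the embryonic arrays, so the embryonic means include such signals. Cd3e (0.85), Cd4 (0.68) and Lck (0.73) were well above background on all 4 arrays, with positive log2 fold changes that were not called. Ptprc and Cd8a were well above background on 1 array at most and Rag1 on none. Endothelial markers went from 0.59 and 0.40 to -2.00 and -1.60, with 3 of 5 lower. These embryonic means include signals too close to background, among them those of Cdh5 and Esam. Kdr, the only tested endothelial marker well above background on all 4 arrays, had a log2 fold change of 0.64 and was not called. After centring 2 epithelial and 2 fibroblast markers were higher and no macrophage marker was, and 1 fibroblast, 2 T lineage and 4 endothelial markers were lower. The shares of all genes were 36.1% higher and 17.5% lower before centring and 7.62% and 20.3% after it. The part of cell type in the values of the growth arrest genes was not tested.

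The genes most like 3 of the followed ones over the 4 arrays were found by the root mean square distance of their centred log2 signals. For Cdkn1a they were Unc5b (0.02), Cast (0.03) and Olfr544 (0.07), for Cdkn2a Rrp15, Abhd10 and Slc27a3 (0.04 each), and for Trp53 Syngr4 (0.03), Smn1 (0.03) and Actr10 (0.04). Within a distance of 0.1 lay 10, 42 and 75 genes. With 4 arrays such a match describes these values only.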

How the data were processed

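Per the file headers, Agilent Feature Extraction 10.7.3.1 made an intensity per spot, with background subtracted and a spatial trend removed within each array; the authors' deposited value table also holds intensity, on a linear scale with medians of 34.4, 35.0, 35.7 and 35.1, and its normalization between arrays was not given in the sources used here. It served as an alternative. Per the labels, 25 ng of RNA was labelled with Cy3.

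Computed here: log2 of the processed intensity minus the array's 75th percentile over all spots of genes. That percentile left out control spots but kept spots marked as outliers. The signals themselves left out spots marked as outliers, and the spots of a probe were averaged. Of 55681 probes 28020 matched a symbol through RefSeq accessions without versions (names of GRCm38.p6; the array design names mm9). A probe was tested if well above background on both arrays of a group, and a gene took its brightest probe, those measured on 4 arrays first. Of the genes tested 292 had 3 values. limma 3.58.1 (R 4.3.3) fitted embryonic minus adult over all 4 arrays without covariates, with Benjamini-Hochberg adjustment and a threshold of 0.05, and was tested on simulated data. No spot was saturated. The number of arrays limits the precision.

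The members and lists were chosen with earlier results of these data known. Named are the 10 genes, Cdkn1c, up to 3 called genes per direction and list that were measured on all 4 arrays, and the nearest profiles of 3 genes. Also named are Cdk6, cell type markers, some of them chosen after their values were seen, and genes said to be named after their values were seen.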

Additional observations from a re-analysis of the deposited data

How the results depend on the processing

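No alternative called any of the 10 genes lower. Beside the 7313 genes called, 3346 were called with normexp (offset 50, on median spot signals, since the files hold no mean signals), 4718 after quantile normalization, 3813 centred on the tested genes, 11519 centred on all probes, 2727 without a filter on dim probes, and 0 to 7540 without 1 array. Calls higher made up 67.4% as reported, 75.5%, 58.0%, 27.3%, 85.3% and 34.4% in the first 5 of these, and 94.3% with signal asked on all 4 arrays. Of the 10 genes, 3, 2, 10 and 2 were called higher after quantile normalization, centring on tested genes, centring on all probes and without the filter, and 0 to 6 without 1 array. Cdkn1a was not called after quantile normalization (0.79), centring on tested genes (0.84), in the deposited table (0.72) or without the filter (1.49). Nor was it called with the percentile without outlier spots (1.35), an alternative chosen after seeing the data, like that of keeping such spots. The mean of the Cdkn1a probes gave -0.30, and there adult array 2 held only the brighter probe, while the other arrays averaged both. Cdkn2b was not called after quantile normalization (0.60), centring on tested genes (0.78), in the deposited table (0.55) or without the filter (1.44). Ccng1 was not called after quantile normalization (0.94), centring on tested genes (1.12) or without the filter (1.78). The sign of Cdkn2a turned after quantile normalization (-0.22) and in the deposited table (-0.28), and that of Cdkn2c after centring on tested genes (-0.49). Centred on all probes Cdkn2a (1.88), Cdkn2c (1.35), Cdkn2d (1.99), Trp53 (1.86) and Mdm2 (2.19) were called as well, Trp53 also after quantile normalization (1.17) and in the deposited table (0.77), and Mdm2 with signal asked on all 4 arrays and with an intensity trend (both 1.00). Without 1 array the log2 fold change ran from 0.89 to 2.09 for Cdkn1a, 2.33 to 2.55 for Cdkn1b, 0.27 to 1.11 for Cdkn2a, 1.24 to 1.64 for Cdkn2b, -0.41 to 0.74 for Cdkn2c, 0.37 to 1.24 for Cdkn2d, 0.30 to 1.06 for Trp53, 0.66 to 1.35 for Mdm2, 1.47 to 2.10 for Ccng1 and 1.91 to 2.47 for Rb1, the lone array of a group being assumed to vary like the others. Where a call changed, the cause was not tested.

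Arrays of one number share only that number (deviations of same-numbered arrays correlated at 0.17 over 9619 genes), and with the replicate number as a block 7013 genes were called and Cdkn1a was not (1.49, adjusted p = 0.0503).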
